A study of Homo sapiens with 2 samples.

Results

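The semaphorins, plexins and neuropilins are the ligands, receptors and co-receptors of one guidance system, and their transcripts were compared between ACHN cells that received a Kindlin-2 shRNA and ACHN cells that received a control shRNA. Members were the genes whose platform symbol was SEMA followed by a digit, any PLXN gene, NRP1 or NRP2, read from transcript clusters (the array's unit for a gene) with a single symbol. This gave 30 genes of the 18417 with a single symbol, made up of 19 semaphorins, 9 plexins and 2 neuropilins, on 32 transcript clusters. SEMA4C was not analysed here. ACHN is an established human renal carcinoma line, which the labels class as clear cell, and FERMT2 encodes Kindlin-2, an adaptor that binds the tails of beta integrins. Both cultures were transfected and then kept in minimum essential medium with 10% serum and 400 µg/ml G418, a drug that selects transfected cells. The labels do not say whether the cells were a clone or a pool, nor which Kindlin-2 sequence the shRNA targeted. Each group was 1 Affymetrix Human Gene 1.0 ST array, so every value is a single measurement with no replicate check, no error and no test, and the number of arrays limits the precision of each difference.

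Semaphorins are secreted or membrane-bound proteins that share a sema domain. They were first known as axon guidance cues and also act on epithelial, endothelial and immune cells. Plexins are their receptors. Secreted class 3 semaphorins mostly need a neuropilin as the ligand-binding partner of an A-type plexin, whereas SEMA3E binds PLXND1 directly, and the membrane-bound classes bind plexins without a neuropilin. Bound plexins act on R-Ras and Rap GTPases through a GTPase-activating domain, and one outcome is weaker integrin adhesion. In kidney development semaphorins take part in ureteric bud branching and in vessel patterning.

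A difference is given throughout on the log2 scale of the authors' RMA values, and a negative one means a lower value in the knockdown array than in the control array. Apart from a common floor for the filter, brightness was not compared between genes, since each has its own probes. A gene was kept for counting when at least 1 array gave it a value of 6.52 or more, which is the median over the whole table, and 22 of the 30 members were kept. Among these, 1 was at least 2-fold lower in the knockdown array and none was at least 2-fold higher. At 1.5-fold, 3 members were lower (SEMA3E, SEMA3B and SEMA4G), all of them semaphorins, and none was higher. Of all 11822 kept genes 1.26% were at least 2-fold lower and 1.41% at least 2-fold higher, and 5.23% were at least 1.5-fold lower and 5.1% at least 1.5-fold higher. The 3 lower members were 13.6% of the members kept. With both values required to reach the floor, 2 of 20 members (10.0%) were lower, since SEMA3B was dropped. Under that rule 4.59% of all 11130 genes were at least 1.5-fold lower and 4.59% at least 1.5-fold higher. Of the 22 members kept at first, the other 19 passed neither bound. The median difference of the kept members was -0.09, against -0.02 over all kept genes, and 15 were below 0 and 7 above. Of all 11822 kept genes, 6285 were below 0 and 5489 above.

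**Figure D1:**
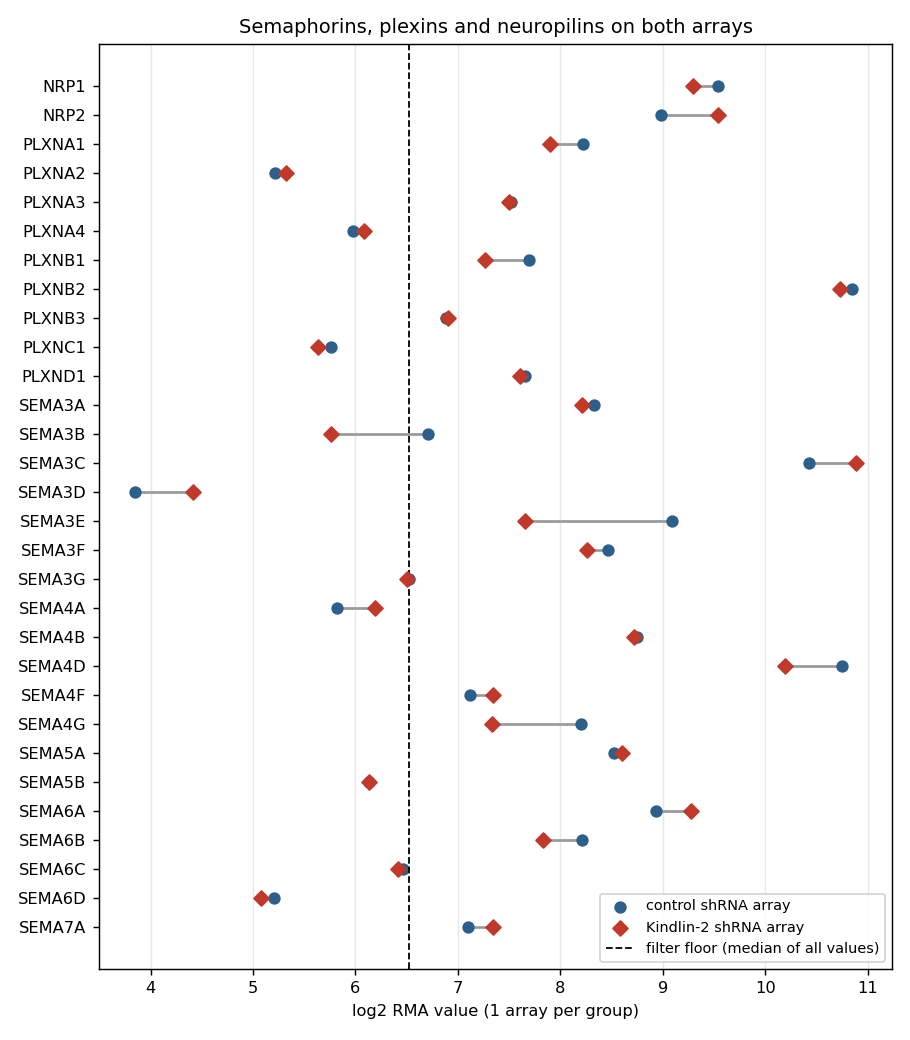
Log2 RMA value of each of the 30 genes on the control shRNA array (blue circle) and the Kindlin-2 shRNA array (red diamond), 1 array per group, with a dashed line at the filter floor of 6.52. The longest bar is that of SEMA3E, from 9.09 to 7.66, and 8 genes lie left of the floor on both arrays.

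**Figure D2:**
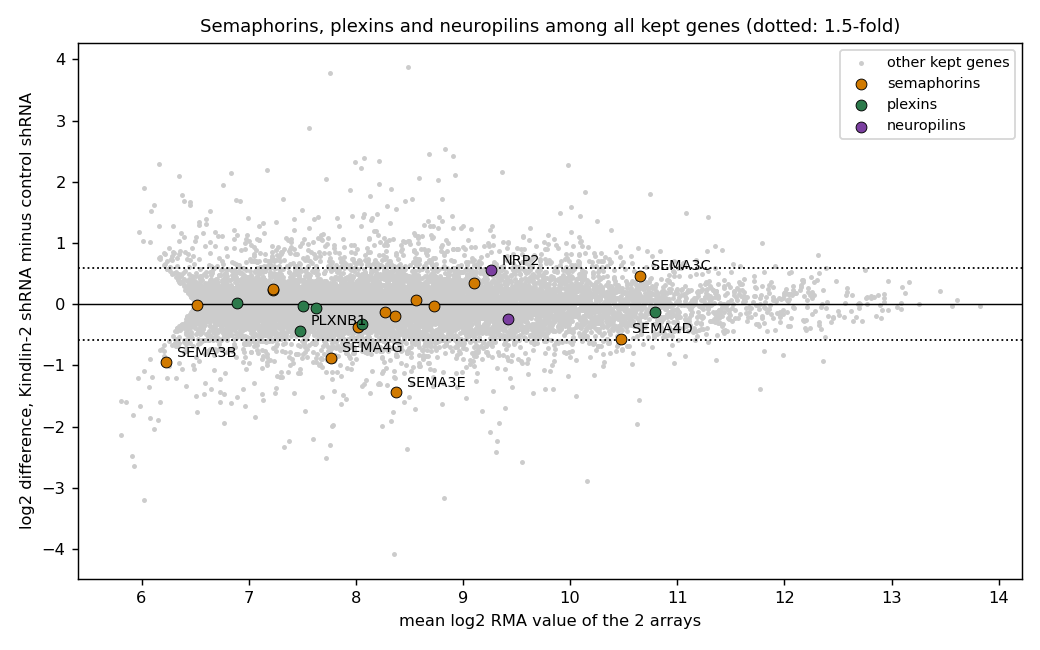
Log2 difference (Kindlin-2 shRNA minus control shRNA) against the mean log2 value of both arrays for the 11822 kept genes, with the 22 kept members coloured by family and dotted lines at 1.5-fold. SEMA3E, SEMA3B and SEMA4G lie below the lower line, and NRP2 and SEMA3C are the highest members, both under the upper line.

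The promoters of the 3 genes that passed 1.5-fold are shown because these genes set the count. Each runs from 250 bases before to 50 bases after the outermost RefSeq start (GRCh38.p14), on the gene's own strand, and capitals mark matches to the GC box GGGCGG on either strand. RefSeq lists 2 starts for SEMA3E, 5 for SEMA3B and 2 for SEMA4G, and which of them was used in these cells was not measured.
SEMA3E, chr7:83649090-83649389, minus strand: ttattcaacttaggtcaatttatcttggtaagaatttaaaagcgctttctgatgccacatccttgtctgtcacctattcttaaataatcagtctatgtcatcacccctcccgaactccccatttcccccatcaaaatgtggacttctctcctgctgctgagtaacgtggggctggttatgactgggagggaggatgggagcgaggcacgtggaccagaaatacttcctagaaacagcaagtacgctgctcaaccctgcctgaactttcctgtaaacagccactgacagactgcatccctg
SEMA3B, chr3:50259976-50260275, plus strand: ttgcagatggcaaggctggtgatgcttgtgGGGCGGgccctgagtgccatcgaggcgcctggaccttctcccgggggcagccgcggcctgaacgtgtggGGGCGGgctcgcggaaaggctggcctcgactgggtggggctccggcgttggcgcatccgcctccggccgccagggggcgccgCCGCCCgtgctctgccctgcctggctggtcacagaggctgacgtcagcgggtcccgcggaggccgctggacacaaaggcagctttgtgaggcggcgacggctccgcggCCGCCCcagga
SEMA4G, chr10:100969254-100969553, plus strand: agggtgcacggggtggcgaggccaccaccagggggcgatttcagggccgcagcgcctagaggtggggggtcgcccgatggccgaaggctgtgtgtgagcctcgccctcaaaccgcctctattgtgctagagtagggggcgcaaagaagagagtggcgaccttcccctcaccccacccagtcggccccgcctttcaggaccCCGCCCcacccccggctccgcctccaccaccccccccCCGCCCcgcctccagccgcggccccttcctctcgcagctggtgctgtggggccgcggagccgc
The SEMA3E window was 47.3% G and C, with 6 CpG dinucleotides and no match to the GC box. The SEMA3B window was 73.7% G and C with 32 CpG and 4 matches, and the SEMA4G window 72.7% with 25 CpG and 2 matches. The SEMA3E window was thus poorer in G and C than the other 2. Of the 30 members, 26 had a promoter in the table, the others being NRP1, SEMA3A, SEMA6A and SEMA6B, and the GC box was present in 19 of them (73.1%) against 44.5% of all 27305 windows of this length. Their median G and C content was 66.2%, against 58.3% in all windows. The TEAD motif GGAATG was found in 2 members (7.69%, against 14.1% of all windows) and the E-box CACCTG, bound by ZEB and SNAI factors, in 6 (23.1% against 20.6%). The AP-1 motif TGANTCA was found in none of the 26, against 7.72% of all windows. Both strands were searched for every motif and the letters of different motifs were counted separately. The 3 promoters shown held none of the last 3 motifs. A match is a run of letters and was not tested as a binding site.

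Class 3 semaphorins, the secreted ligands, held both the lowest and one of the highest differences. SEMA3E, a ligand of PLXND1 that guides vessels and axons, had a log2 value of 9.09 in the control array and 7.66 in the knockdown array. It was 2.70-fold lower in the knockdown array, a difference of -1.43, which left 37.0% of the control value. Both values lay above the floor, and 62 of the 11822 kept genes had a larger decrease. SEMA3B, which signals through neuropilins and is known as a candidate tumour suppressor of the chromosome 3 short arm, had 6.70 in the control array and 5.76 in the knockdown array. It was 1.93-fold lower (difference -0.95), and 170 kept genes had a larger decrease. Its control value was close to the floor and its knockdown value below it, so SEMA3B was kept through the control array alone.

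The remaining class 3 genes were within 1.5-fold or dim. SEMA3C, which binds both neuropilins, went the other way from SEMA3E, with 10.42 in the control array and 10.89 in the knockdown array (difference 0.47, 1.38-fold higher). SEMA3A, the classical repellent that acts through NRP1, had 8.33 in the control array and 8.21 in the knockdown array, a difference of -0.12. SEMA3F, a ligand of NRP2, had 8.46 and 8.26 in the same order, a difference of -0.20. Both lay below 0 and inside the interquartile range of all kept genes, which ran from -0.21 to 0.17, with SEMA3F close to its lower end. SEMA3G, a ligand of NRP2, was just inside the filter at 6.52 in the control array and 6.50 in the knockdown array. SEMA3D was outside it, with 3.85 in the control array and 4.42 in the knockdown array. Its difference of 0.57 was the most positive of all 30 members, but both values were far under the floor. With SEMA3D included, 5 of the 7 class 3 genes were below 0, as were 9581 of all 18417 genes without the filter.

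Positions on the chromosome give a closer comparison for the class 3 genes, because SEMA3C, SEMA3E, SEMA3A and SEMA3D follow each other on chromosome 7, whose 551 kept genes had a median difference of -0.22. The 3 kept members of this stretch spanned 1.90 on the log2 scale, from SEMA3E to SEMA3C. Around them the 13 kept genes that are no members had a median of -0.28 and lay between -0.96 and 0.07. SEMA3C was therefore above every one of these neighbours, and SEMA3E below every one. The calcium channel subunit CACNA2D1, which lies between SEMA3C and SEMA3E, had the lowest neighbour value, -0.96. When the median of the 50 nearest kept genes without members was subtracted, SEMA3E was at -1.21, SEMA3A at 0.17 and SEMA3C at 0.65, which takes SEMA3C past 1.5-fold and turns the sign of SEMA3A. What produced the shift of chromosome 7 was not tested.

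On chromosome 3 the genes of SEMA3F and SEMA3B lie close together, with GNAT1, SLC38A3 and GNAI2 measured between them. Their differences of -0.20 and -0.95 were 0.75 apart. The 12 kept neighbours there had a median of -0.03 and lay between -0.36 and 0.50, so that SEMA3B was below all of them and SEMA3F was not. GNAI2, the G protein subunit gene next to SEMA3B in this order, had a difference of -0.17. Chromosome 3 carries 7 of the 30 members, which also include SEMA3G, SEMA5B, PLXNA1, PLXNB1 and PLXND1. None of the 7 was above 0, and the 630 kept genes of the chromosome had a median of 0.03. SEMA5B had equal values under the floor, and SEMA3G (-0.02) and PLXND1 (-0.055) were near 0. Medians of the 50 nearest kept genes ran from -0.08 at SEMA3F and SEMA3B to 0.04 at PLXNA1 and PLXND1. SEMA3G was at 0.0014 once its own neighbour median was subtracted.

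**Figure D3:**
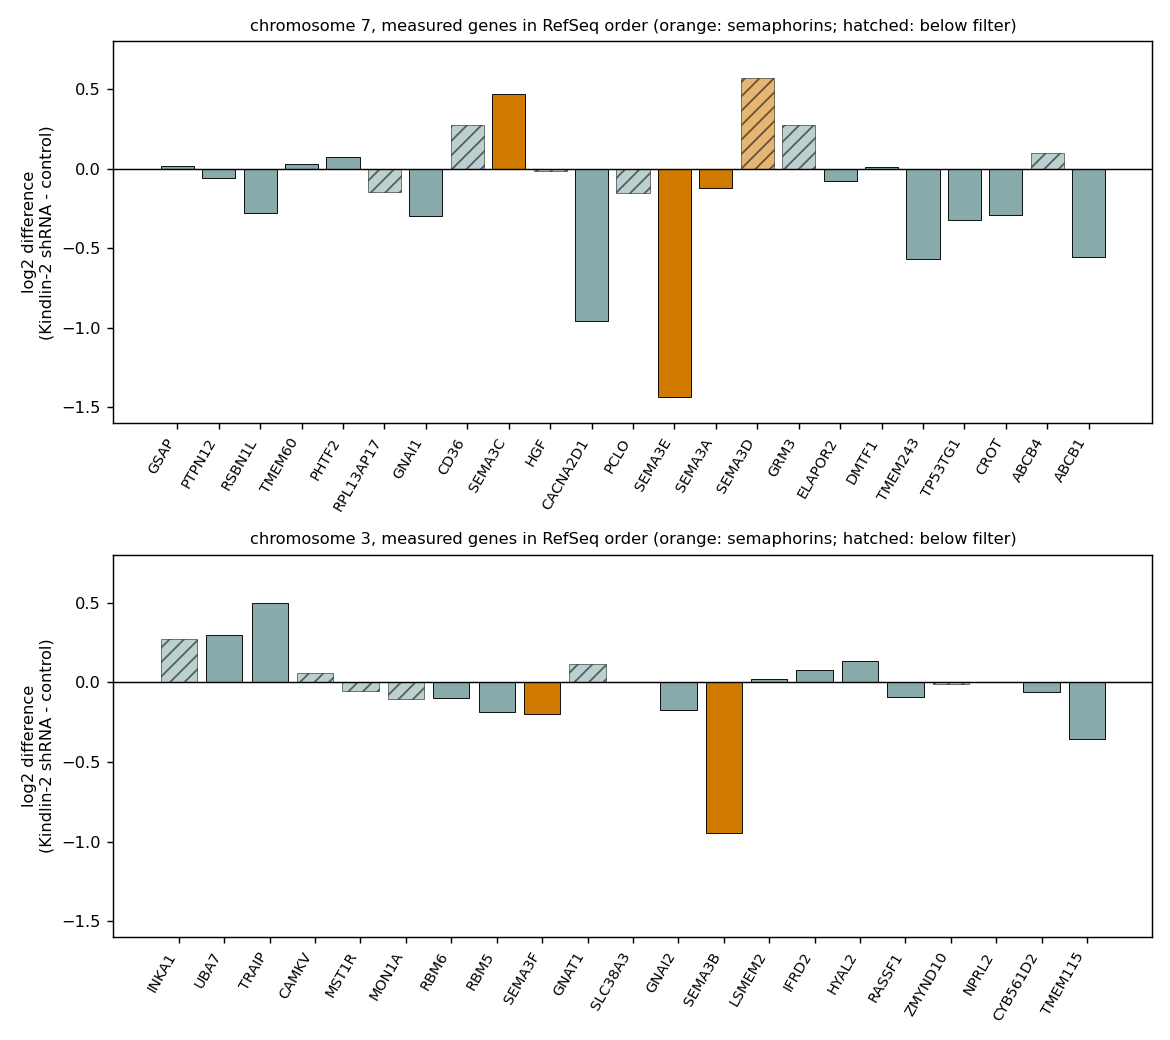
Log2 difference (Kindlin-2 shRNA minus control shRNA) of measured genes in RefSeq order around the class 3 semaphorins of chromosome 7 (top) and chromosome 3 (bottom), with semaphorins in orange and genes below the filter hatched. SEMA3E (-1.43) and SEMA3B (-0.95) are the lowest bars of their panels, and SEMA3C (0.47) lies 4 places from SEMA3E.

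Among the membrane-bound class 4 ligands, SEMA4G, whose functions are less well described, had 8.20 in the control array and 7.33 in the knockdown array. It was 1.83-fold lower, a difference of -0.87, and 208 kept genes had a larger decrease. Both of its values were above the floor. On chromosome 10 the 13 kept neighbours of SEMA4G had a median of -0.12 and ran from -0.97 for the desaturase SCD to 0.65 for SLF2, so SEMA4G lay within their span. SEMA4D, a ligand of PLXNB1 and of CD72 on lymphocytes, was measured by 2 transcript clusters. The brighter had 10.75 in the control array and 10.19 in the knockdown array, a difference of -0.56 that stayed just short of 1.5-fold at 1.47-fold. The dimmer had 7.57 and 6.52 in the same order, a difference of -1.05 or 2.07-fold, with its knockdown value just under the floor. Both clusters were thus lower in the knockdown array, by unequal amounts, and their mean difference of -0.81 passed 1.5-fold. SEMA4D lies on chromosome 9, whose 495 kept genes had a median of -0.31, and its brighter cluster was at -0.30 once the median of its neighbours was subtracted. The other class 4 ligands were near 0 or higher. SEMA4B had a difference of -0.03, with 8.75 in the control array and 8.72 in the knockdown array, and SEMA4F had 0.23, with 7.12 and 7.34. SEMA4A, an immune and retinal semaphorin, was under the floor on both arrays (5.82 in the control array, 6.19 in the knockdown array).

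Classes 5, 6 and 7 had no member past 1.5-fold. SEMA6A, a ligand of A-type plexins, had 8.94 in the control array and 9.28 in the knockdown array (difference 0.34), and SEMA6B had 8.21 and 7.83 in the same order (-0.38). These related ligands of 1 class thus differed in opposite directions, each by less than 1.5-fold. SEMA7A, which is anchored by a lipid and can bind beta-1 integrins as well as PLXNC1, had 7.10 in the control array and 7.35 in the knockdown array (0.25). SEMA5A had 8.53 and 8.60 in that order (0.07). SEMA5B, SEMA6C and SEMA6D were under the floor on both arrays, and SEMA5B had the same value, 6.13, on both.

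Among the receptors, all 6 plexins kept were within 1.5-fold, 5 of them below 0 and 1 above, with a median of -0.09. Of all 11822 kept genes, 6285 were below 0. PLXNB1, the receptor of SEMA4D, had the lowest difference among plexins, with 7.69 in the control array and 7.26 in the knockdown array (-0.43, 1.35-fold lower). PLXNA1, a partner of the neuropilins, had 8.22 and 7.90 in the same order (-0.32). The other B-type plexins differed by less, PLXNB2 by -0.12 (10.85 in the control array, 10.73 in the knockdown array) and PLXNB3 by 0.02 (6.88 and 6.91). PLXND1, the receptor of SEMA3E, had 7.66 in the control array and 7.60 in the knockdown array. Its difference of -0.06 stood beside -1.43 for its ligand. PLXNA3 had 7.52 and 7.50 (-0.02). PLXNA2, PLXNA4 and PLXNC1 were under the floor on both arrays, with differences between -0.12 and 0.11.

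The co-receptors were both well above the floor and had opposite signs. NRP2, which binds SEMA3B, SEMA3C and SEMA3F as well as VEGF-C, had 8.98 in the control array and 9.54 in the knockdown array, a difference of 0.55 (1.47-fold higher). A dimmer cluster of NRP2 had 7.14 and 7.70 in the same order and gave the same difference, 0.55. On chromosome 2 the 10 kept neighbours of NRP2 had a median of 0.11, and 1 of them, RAPH1, was higher than NRP2 at 0.67. NRP1, the co-receptor of SEMA3A and of VEGF-A, had 9.54 in the control array and 9.30 in the knockdown array (-0.24). Among textbook pairs of ligand and receptor with both genes kept, SEMA3C and NRP2 were both above 0, as were SEMA5A and PLXNB3. SEMA4D and PLXNB1 were both below 0, as were SEMA3A and NRP1, and SEMA3E and PLXND1. Of these genes SEMA5A (0.07), PLXNB3 (0.02) and PLXND1 (-0.06) were near 0. With neighbour medians subtracted, SEMA3A was at 0.17 and NRP1 at -0.30, so that this pair then had opposite signs. SEMA3B and SEMA3F each had the opposite sign to NRP2. SEMA3C also binds NRP1 and had the opposite sign to it. These pairs are a description of single differences and were not tested.

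**Figure D4:**
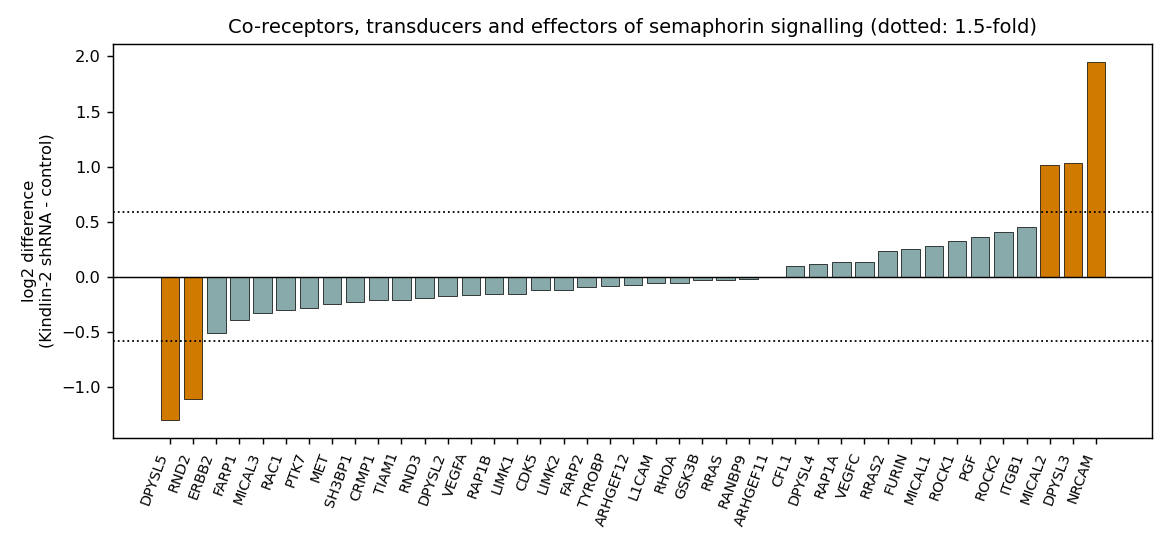
Log2 difference (Kindlin-2 shRNA minus control shRNA) of the 41 kept genes of the list of co-receptors, transducers and effectors, ordered by difference, with those past 1.5-fold in orange and dotted lines at 1.5-fold. DPYSL5 and RND2 lie below the lower line and MICAL2, DPYSL3 and NRCAM above the upper one.

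Other genes of the pathway were taken from a list of 55 co-receptors, transducers and effectors, of which 51 were measured and 41 kept. In this list 3 genes passed 2-fold upward (7.32% of those kept), against 1.41% of all kept genes. Downward 2 passed it (4.88%), against 1.26% of all kept genes. No further gene passed 1.5-fold, and the median was -0.07 against -0.02 over all kept genes. At 1.5-fold the list was thus again 7.32% higher and 4.88% lower, beside 5.1% and 5.23% of all kept genes. NRCAM and DPYSL3 were kept through the knockdown array alone. Among the 39 list genes with both values above the floor, 1 was higher (2.56%) and 2 were lower (5.13%). Of all genes under that rule, 4.59% were higher and 4.59% lower. The largest difference was that of NRCAM, an adhesion molecule that forms a receptor complex with NRP2, which had 5.78 in the control array and 7.73 in the knockdown array. It was 3.87-fold higher (1.95), from a control value under the floor, and 21 of all kept genes had a larger increase. NRCAM lies on chromosome 7 and was at 2.18 after the median of its neighbours was subtracted. L1CAM, the related partner of NRP1, differed by -0.05.

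The cytoplasmic effectors differed in both directions within single families. DPYSL5, a collapsin response mediator protein (a family that carries the semaphorin signal to microtubules), had 8.85 in the control array and 7.56 in the knockdown array (-1.30, 2.46-fold lower). DPYSL3 of the same family had 5.98 and 7.02 in the same order (1.04, 2.05-fold higher), its control value being under the floor. The other 3 members of that family, DPYSL2, CRMP1 and DPYSL4, differed by -0.17, -0.21 and 0.12. RND2, a small GTPase of a type that binds plexins, had 8.33 in the control array and 7.23 in the knockdown array (-1.11, 2.15-fold lower), while its relative RND3 differed by -0.19. MICAL2, of the family of enzymes that oxidise actin, had 9.59 and 10.60 in that order (1.02, 2.02-fold higher), while MICAL1 differed by 0.28 and MICAL3 by -0.33. The receptor kinases that associate with B-type plexins, MET and ERBB2, differed by -0.25 and -0.50. MET lies on chromosome 7 and was at 0.04 after the median of its neighbours was subtracted, whereas ERBB2 stayed at -0.50. ITGB1, the integrin subunit that SEMA7A binds, differed by 0.46. The kinase FYN had a difference of 0.97 but was under the floor on both arrays.

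The ephrins and Eph receptors, another family of guidance ligands and receptors, were set beside these genes. Of 21 such genes 12 were kept, with a median of -0.15, 3 at least 1.5-fold lower and none 1.5-fold higher. The lower genes were 25.0% of the kept genes of that family, beside 13.6% here and 5.23% of all kept genes. The 13.6% includes SEMA3B, which was kept through the control array alone. The difference between the families was not tested.

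FERMT2 itself had 9.37 in the control array and 8.26 in the knockdown array, 46.4% of the control value, in the direction of its label. Of 9 renal epithelial markers, 8 were measured and all 8 were kept, with a median difference of -0.45. They ran from -0.83 for CDH16 to 0.91 for CDH6, with PAX2 at -0.66, KRT8 at -0.54 and PAX8 at -0.13. CDH16 was kept through the control array alone (6.26 in the knockdown array), and CDH6 through the knockdown array alone (6.41 in the control array). Of the 8 renal markers 6 were below 0, as were 6285 of all 11822 kept genes. Of 7 endothelial markers 1 was kept, and of 6 measured leukocyte markers 1, CD68, which is also lysosomal and had a difference of 1.24. The defining PECAM1 and PTPRC were under the floor on both arrays. Of 6 measured neuronal genes 5 were kept, with differences from -0.62 for SYT1 to 1.62 for MAP2. MAP2 was kept through the knockdown array alone, with 5.64 in the control array. Of 8 fibroblast and smooth muscle genes 5 were kept, the lowest being RGS5 at -1.16. Their part in the differences of the semaphorin genes was not tested.

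**Figure D5:**
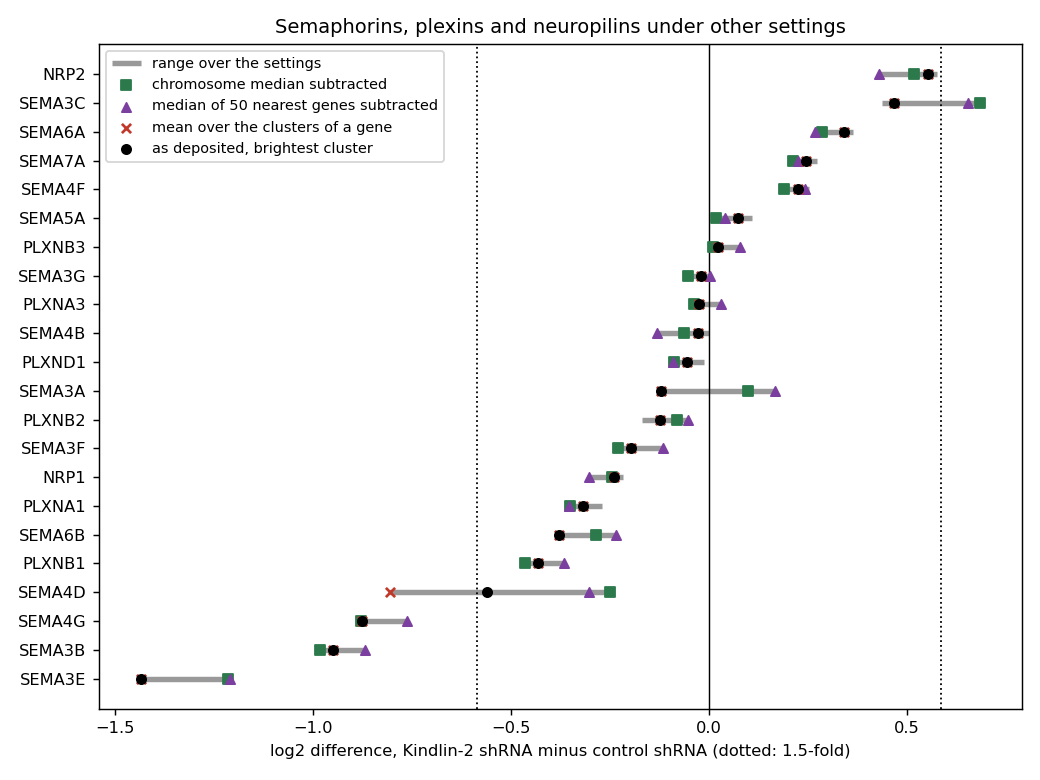
Log2 difference (Kindlin-2 shRNA minus control shRNA) of the 22 kept members as deposited (black) and under other settings, with the grey bar spanning all settings and dotted lines at 1.5-fold. SEMA3E, SEMA3B and SEMA4G stay left of the lower line, SEMA4D crosses it with the mean of its clusters, and SEMA3C crosses the upper line when its chromosome or neighbour median is subtracted.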

How the data were processed

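RNA of 2 cultures was hybridised to 1 array each. The authors deposited log2 values that the submitters' processing notes credit to RMA and Affymetrix Expression Console 1.4.1. The log2 scale was judged from the values. RMA corrects background, aligns the arrays and summarises probes, and shrinks folds of dim genes. The table holds no detection calls, and scanner files were not used here. The library file and the build were not given in the sources used here.

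Platform symbols were updated through Entrez IDs to RefSeq (GRCh38.p14), which also gave chromosomes, gene order and promoters. Of 33297 transcript clusters, 19460 had 1 symbol, 1754 several and 12083 none. The brightest cluster stood for a gene. Differences were computed in Python 3.11.15 with pandas 2.3.3, and the loess with statsmodels 0.14.6. With 1 array a group no test was made. Alternatives were other filters, fold bounds and scalings, the mean over clusters, and subtraction of chromosome or neighbour medians. The counting code was run on simulated data with known changes, which checks the code and not the precision of these counts. Named were all members, FERMT2 and list genes past 1.5-fold. Members and lists were chosen with earlier results of these data known. Other genes, such as L1CAM, relatives of listed genes, the neighbours and the markers, were named after their values were seen.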

Additional observations from a re-analysis of the deposited data

How the results depend on the processing

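The counts of lower members depended on the fold, as 1 member was at least 2-fold lower, 3 at least 1.5-fold and 0 at least 3-fold. The count of members at least 1.5-fold higher was 0 as deposited and 1 (SEMA3C) with the chromosome median or with the median of the 50 nearest genes subtracted. SEMA3E stayed between -1.43 and -1.21 in the 9 alternatives, SEMA4G between -0.88 and -0.76, and SEMA3B between -0.98 and -0.87 in the 7 in which it was kept. It was dropped when both values had to reach the floor and when the floor was the 60th percentile. SEMA4D ranged from -0.81 to -0.25, and passed 1.5-fold with the mean of its clusters and, at -0.60, with repeated quantile normalisation. NRP2 ranged from 0.43 to 0.58. The median of the members stayed below 0 in every setting tried, whereas that of the pathway list was 0.0050 with neighbour medians subtracted, and its mean was 0.0059. Of 193 values of kept members under alternatives, 182 kept sign and side of 1.5-fold, 4 passed 1.5-fold and 7 changed sign (PLXNA3, SEMA3A, SEMA3G and SEMA4B, all within 1.5-fold). A change of filter cannot alter a gene's difference, and the mean over clusters can alter it only for SEMA4D and NRP2. Many of the 182 were thus fixed in advance, and the ranges above come from the other settings. No paired analysis was possible because each group had 1 array.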
